A study of Mus musculus with 4 samples.

Results

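The 9 genes described here encode scaffolds and subunits of the histone deacetylase corepressors other than Sin3: Chd4, Mta1, Mta2, Mbd3 and Gatad2a of NuRD, Hdac3 and Ncor1 of NCoR, and Rcor1 and Kdm1a of CoREST. They were taken by gene symbol from the deposited expression table, by a rule that uses no values but was set with earlier results of these data known. Of these genes, 9 of 9 had library values among 9244 genes that did. Their Ensembl identifiers in the table are ENSMUSG00000063870 (Chd4), ENSMUSG00000021144 (Mta1), ENSMUSG00000071646 (Mta2), ENSMUSG00000035478 (Mbd3), ENSMUSG00000036180 (Gatad2a), ENSMUSG00000024454 (Hdac3), ENSMUSG00000018501 (Ncor1), ENSMUSG00000037896 (Rcor1) and ENSMUSG00000036940 (Kdm1a). RNA sequencing was done on long-term haematopoietic stem cells (HSCs), the marrow cells that sustain all blood lineages, sorted as LSK (lineage-negative, Sca-1-positive, Kit-positive) cells negative for CD34 and Flk2. There were 2 wild-type (WT) and 2 Sin3B knockout (Sin3B KO) libraries, all from C57BL/6 mice aged 8 to 12 weeks (n = 2 per genotype throughout). No source used here gives the allele, the way Sin3b was deleted, the sex or the number of animals behind a library. The p-values therefore reflect the variation among 4 libraries, part of which may be technical.

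Class I histone deacetylases remove acetyl groups from histone tails and work inside large complexes that bring them to genes. NuRD joins Hdac1 and Hdac2 to a nucleosome remodelling ATPase, NCoR holds and activates Hdac3 for nuclear receptors and other repressors, and CoREST pairs Hdac1 and Hdac2 with the histone H3 lysine 4 demethylase Kdm1a (LSD1). In blood, Chd4 is needed for the upkeep of HSCs, and Kdm1a acts with the repressors Gfi1 and Gfi1b. Sin3a and Sin3b are the scaffolds of the remaining major complex, which uses the same Hdac1 and Hdac2, so the comparison asks how genes of the other corepressors were expressed when Sin3b was deleted.

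Promoter stretches of 4 of the genes are printed because they include the pair of members with an unadjusted p under 0.05 (Ncor1 and Chd4), another with lower values in the KO (Mbd3) and one with higher values (Mta2). Each is the part of the 250 bases before the most upstream RefSeq start (GRCm38.p6) that no annotated exon covers, and the capitals mark GC boxes (GGGCGG or its reverse complement CCGCCC).
Ncor1, chr11:62457333-62457435, minus strand: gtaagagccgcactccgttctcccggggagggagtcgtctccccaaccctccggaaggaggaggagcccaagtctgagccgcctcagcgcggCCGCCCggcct
Chd4, chr6:125095731-125095980, plus strand: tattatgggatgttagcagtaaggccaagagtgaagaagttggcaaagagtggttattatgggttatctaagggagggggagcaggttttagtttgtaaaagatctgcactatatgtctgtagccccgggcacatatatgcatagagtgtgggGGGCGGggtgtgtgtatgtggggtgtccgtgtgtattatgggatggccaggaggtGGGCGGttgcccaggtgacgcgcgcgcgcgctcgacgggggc
Mbd3, chr10:80399551-80399781, minus strand: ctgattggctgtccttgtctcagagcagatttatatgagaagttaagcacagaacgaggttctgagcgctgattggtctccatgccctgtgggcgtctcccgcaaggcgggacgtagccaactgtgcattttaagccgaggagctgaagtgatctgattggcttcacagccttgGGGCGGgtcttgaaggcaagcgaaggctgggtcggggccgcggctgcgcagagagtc
Mta2, chr19:8941670-8941874, plus strand: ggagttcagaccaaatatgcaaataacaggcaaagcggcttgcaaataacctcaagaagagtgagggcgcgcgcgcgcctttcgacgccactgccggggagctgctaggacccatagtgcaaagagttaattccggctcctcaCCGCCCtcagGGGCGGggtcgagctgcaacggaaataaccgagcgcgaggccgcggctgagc

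RefSeq windows from 250 bases before to 50 after a start were found for 8 of the 9 members, 11 windows in all; Hdac3 had none. On both strands, the E-box CACGTG, which Myc, Max and the Sin3-recruiting Mxd proteins bind, matched 0 of the 11 windows against 7.15% of all 32851 windows in the table. The cell cycle element TTTGAA matched 0 (17.9% of all windows), and the E2F sequence GCGGGAA matched 1, that of the upstream Gatad2a start (4.6%). The GC box GGGCGG, which overlapped that E2F match, was in all of the windows except that of Kdm1a and the downstream one of Ncor1 (35.7% of all windows). The windows with a GC box were 57% to 81% G and C, against a median of 52.67% over all windows. The windows of Chd4 share bases, so the 11 are not separate. All counts are of letter matches only, and a window without one says nothing of the factor. The table has no measurement of promoter use.

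Levels are normalised reads as deposited by the authors, and their spacing is that of whole reads divided by 1 size factor per library. Depth was 9950979 to 13700630 reads per library in the listed genes, and each member had between 266 and 5898 reads per library, taking the smallest step between the deposited values as 1 read. The counting error of a member in any 1 library was thus at most 6.13% of its value. The deletion was checked on Sin3b, at 1522 and 1825 in WT against 755 and 647 in KO cells (log2 fold change -1.25). The 14 HSC identity genes described here (Procr, Mecom and Hlf among them) summed to 68504 and 66429 in WT against 62509 and 71067 in KO cells. None was at 0 in any library, and Kit and Meis1 were the largest parts of each sum. Hlf (8877 and 7805 in WT, 5353 and 7054 in the KO) and Fgd5 (710 and 1240, 257 and 643) were lower in both KO libraries. Tek (1087 and 1080, 1269 and 1419) and Ly6a (2343 and 2628, 2699 and 2812) were higher in both, and the others overlapped. Over all genes, groups did not overlap as lower for 19.4% and as higher for 24.7%. Markers of other cells were read in all libraries, with higher sums in the libraries numbered 1 of both genotypes for all 5 lists. The 12 myeloid genes summed to 78181 and 14798 in WT 1 and 2 and to 53955 and 24551 in Sin3B KO 1 and 2, and the 6 measured B lineage genes to 3809 and 1503, and 4465 and 1703. The 10 erythroid genes summed to 59062 and 57489 in WT against 80800 and 63015 in KO cells, with a median log2 fold change of 0.80, and Slc4a1 was at 0 in WT 2. Of the T and NK list 3 of 10 genes were measured (sums of 2264 and 1570 in WT, 3078 and 1740 in the KO), with Il7r at 0 in WT 2. Of the endothelial and stromal list 4 of 8 were measured (3068 and 1867 in WT, 4407 and 2155 in the KO). The 10 measured immediate early genes, induced by cell handling, ran the other way in sum, at 7633 and 23471 in WT against 6662 and 12911 in KO cells. The median log2 fold change of that list was -0.98. Junb was higher in the libraries numbered 1 of both genotypes, and Ier2 and Nr4a1 in that of the KO only. The part of these lists in the results below was not tested. In bulk RNA fewer expressing cells and less RNA per cell cannot be told apart.

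Transcript levels of the 9 genes were compared per kilobase of exon, the union of the exons of each gene's basic GENCODE transcripts. In WT cells Mta2 was highest at 1364 ± 96.5 (SD, n = 2) normalised reads per kilobase, followed by Chd4 at 729 ± 23.7 and Hdac3 at 728 ± 47.9, whose WT ranges overlapped. Mbd3 was at 303 ± 27.2, Ncor1 at 276 ± 5.76, Mta1 at 232 ± 99.5, Gatad2a at 210.4 ± 27.6 and Kdm1a at 168 ± 4.64. From Mbd3 to Kdm1a, Mta1 overlapped both of its neighbours in the WT libraries, while Mbd3 and Ncor1, and Gatad2a and Kdm1a, did not overlap. Rcor1, the CoREST scaffold, was lowest at 71.8 ± 17.3, below its partner Kdm1a in both WT libraries. The order was the same when the longest coding transcript was used as the length. Mbd3 and Ncor1 were then nearly equal, at 341.35 and 341.26, so their separation held only for the union of exons. In the KO, Hdac3 (838 ± 49.3 per kilobase) lay above Chd4 (526 ± 52.5) in both libraries.

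**Figure D1:**
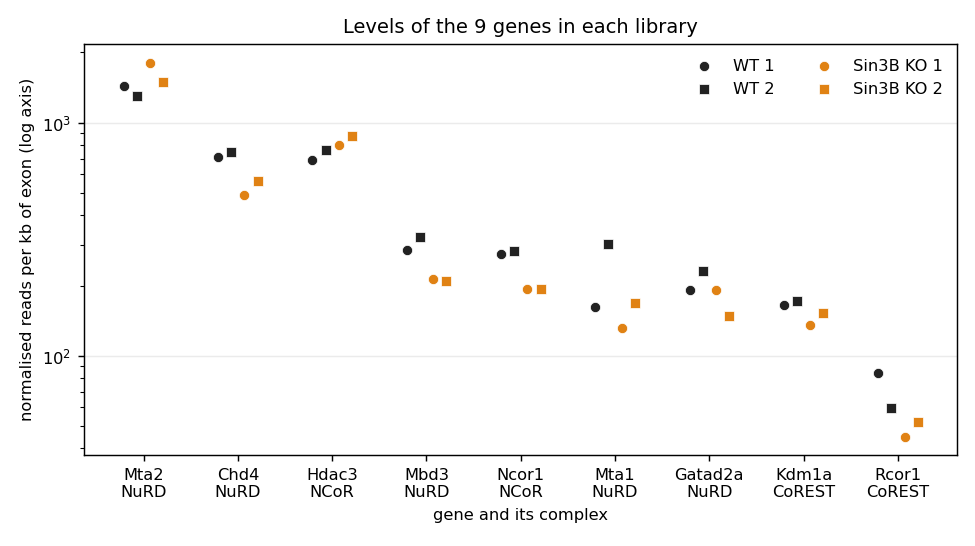
Normalised reads per kilobase of exon (log axis) of the 9 genes, 1 point per library, black for WT and orange for Sin3B KO, circles for libraries numbered 1 and squares for those numbered 2. Mta2 was highest and Rcor1 lowest in every library, and only for Mta2 and Hdac3 did both orange points lie above both black ones.

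Of the 9 genes, 7 had a log2 fold change below 0 (Sin3B KO minus WT, on log2(value + 1)), against 46.6% of all genes, and their median was -0.47 against 0.03 over all genes. None passed the threshold of a Benjamini-Hochberg adjusted p under 0.05 over all genes (limma, smallest adjusted p among them 0.548), and 0 of 9244 genes did (0%). At an unadjusted p under 0.05 there were 2 members, Ncor1 and Chd4, both lower in the KO, where 3.95% of all genes were called lower. Counted in either direction the share at that level was 8.91%, and 4.97% of all genes were called higher. Without Sin3B KO 1 and without Sin3B KO 2, the log2 fold change of Ncor1 was -0.52 and -0.51. That of Chd4 was -0.37 and -0.58. Without WT 2 the members' median was -0.20. Groups did not overlap for 8 members, 6 lower and 2 higher in the KO, against a background of 44.1% (19.4% lower and 24.7% higher). Of the 9 members, 0 had an adjusted p under 0.05 in the authors' deposited table, where 0.316% of genes did. Ncor1 and Chd4 were also the members with an unadjusted p under 0.05 in the authors' deposited table, where 9.5% of genes were at that level and 4.07% as lower. With the replicate number as a block 0.292% of all genes passed and 0 members did. The median 95% interval over all genes reached 0.597 to either side on the log2 scale, a 1.51-fold difference, and the estimates of all 9 members were smaller than that. The members' own intervals, before adjustment for the number of genes, spanned 0 except those of Ncor1 and Chd4. Summed over its members, NuRD stood at 11294 and 11773 in WT against 10754 and 10127 in KO cells, NCoR at 4449 and 4677 against 3798 and 3926, and CoREST at 983 and 863 against 669.9 and 762.

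Among the NuRD genes, Chd4, the ATPase that moves nucleosomes, was at 4783 and 5008 in WT against 3281 and 3780.2 in KO cells. Both KO libraries were below both WT libraries, and the higher KO value was Sin3B KO 2. The level was 4895 ± 159 in WT and 3531 ± 353 in the KO, 1.39-fold lower (log2 fold change -0.47, 95% interval -0.90 to -0.05, limma unadjusted p = 0.0319, adjusted p = 0.548). In the authors' deposited table its log2 fold change was -0.42 with an adjusted p of 0.397.

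The MTA proteins are the NuRD scaffolds that bind Hdac1 and Hdac2, and their genes had opposite signs. Mta2, the more abundant, was at 4489 and 4061 in WT against 5669 and 4680.0 in KO cells, so the KO libraries were the higher ones without overlap (log2 fold change 0.27, 95% interval -0.17 to 0.71, limma adjusted p = 0.629). Without Sin3B KO 1 its log2 fold change was 0.13, and without Sin3B KO 2 it was 0.41. Mta1 was at 457 and 856 in WT against 372 and 476 in KO cells. Its groups overlapped, since WT 1 lay below Sin3B KO 2, and the WT libraries differed from each other by 0.90 on the log2 scale, more than the genotypes did (log2 fold change -0.57, 95% interval -1.34 to 0.20, limma adjusted p = 0.586). Without WT replicate 2 the log2 fold change of Mta1 was -0.12, and without WT replicate 1 it was -1.02. The third family member, Mta3, was at 765 and 1047 in WT against 1154 and 883 in KO cells.

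Mbd3 joins the deacetylase and remodelling parts of NuRD and, unlike its paralog Mbd2, does not bind methylated DNA well. It was at 531 and 603 in WT against 399.8 and 389.7 in KO cells, with both KO libraries lower and close to each other (SD 7.16). That SD was below the counting error of any 1 library (4.05% to 4.90%), so it does not measure precision. The log2 fold change was -0.52 (95% interval -1.10 to 0.06, limma unadjusted p = 0.0730, adjusted p = 0.550). Gatad2a, which links Chd4 to the Mbd protein, was at 1034.1 and 1245 in WT against 1032.2 and 801 in KO cells. Its groups were separated only by the near-equal values of WT 1 and Sin3B KO 1 (log2 fold change -0.32, 95% interval -0.85 to 0.21). Without WT 2 the log2 fold change was -0.19 and without Sin3B KO 2 it was -0.14, and without Sin3B KO 1 it was -0.50.

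For NCoR, the scaffold and its enzyme had opposite signs. Ncor1, the large protein that binds nuclear receptors and activates Hdac3, was at 3038 and 3129 in WT against 2166 and 2153 in KO cells. Libraries of the same genotype were close together, with SDs of 64.3 and 9.63 around means of 3084 and 2159.6. The KO SD was below the counting error of any 1 library (1.78% to 2.11%), so with n = 2 it does not measure precision. Ncor1 was 1.43-fold lower in the KO (log2 fold change -0.51, 95% interval -0.93 to -0.10, limma unadjusted p = 0.0215, adjusted p = 0.548). In the authors' deposited table its log2 fold change was -0.45 with an adjusted p of 0.328. Hdac3, the catalytic subunit, was at 1410.4 and 1548 in WT against 1632 and 1774 in KO cells. Both KO values were the higher ones, with an interval that spans 0 (log2 fold change 0.20, 95% interval -0.25 to 0.65, limma adjusted p = 0.712). With upper quartile and with quantile scaling the log2 fold change of Hdac3 was 0.09, and that of Ncor1 was -0.63 and -0.64. With the exon length trend described below removed, they were 0.09 and -0.27.

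Both CoREST genes had lower values in the KO. Rcor1, which ties Kdm1a to Hdac1 and Hdac2, was at 478 and 338 in WT against 256 and 295 in KO cells (log2 fold change -0.55, 95% interval -1.27 to 0.17, limma adjusted p = 0.579). The groups did not overlap, but the WT libraries differed by 0.50 on the log2 scale, and the log2 fold change was -0.30 without WT 1 and -0.80 without WT 2. Kdm1a was at 505 and 525 in WT against 414 and 467 in KO cells. Its difference was the smallest of the 7 negative ones, at a log2 fold change of -0.23 (95% interval -0.80 to 0.35, limma adjusted p = 0.747). Without Sin3B KO 1 the log2 fold change of Kdm1a was -0.14.

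**Figure D2:**
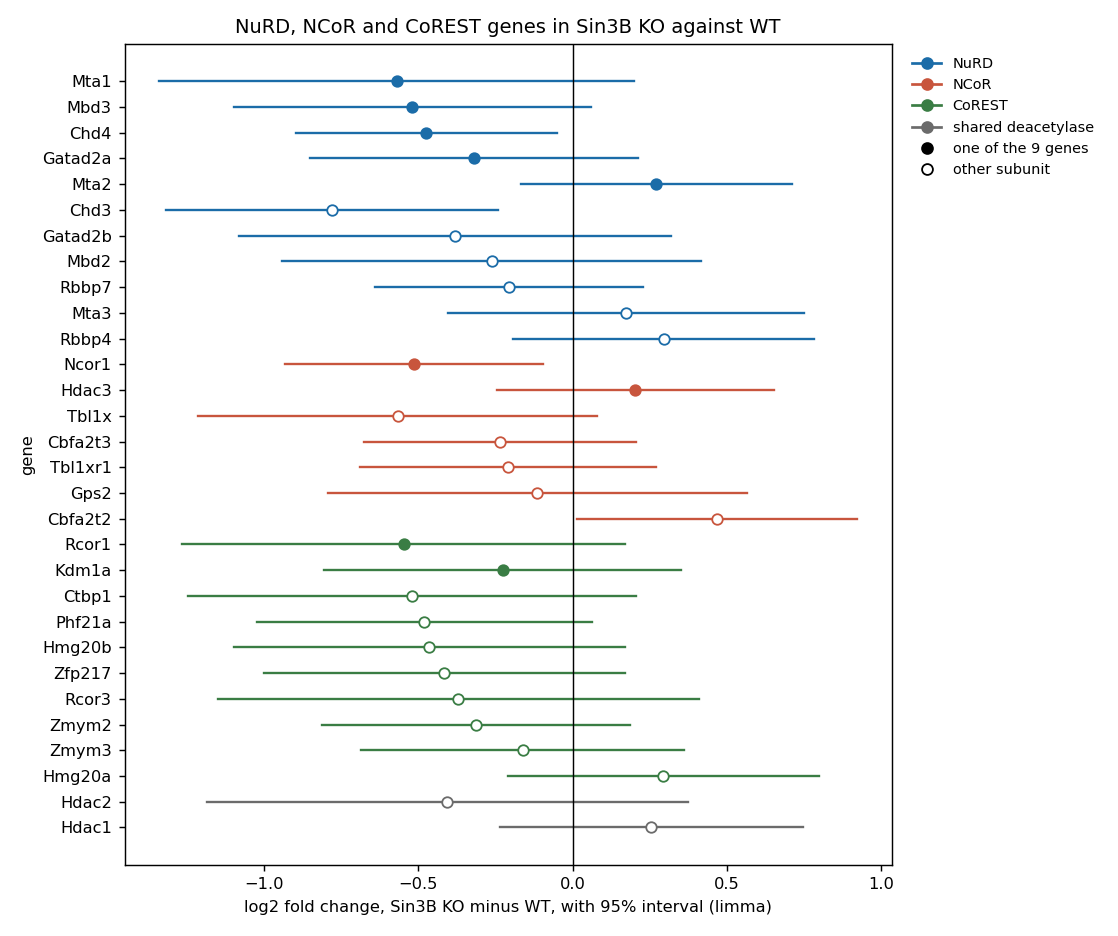
Log2 fold change (Sin3B KO minus WT) with its 95% interval by limma for the 9 genes (filled points) and 21 other subunits (open points), coloured by complex. The intervals of Chd4, Ncor1 and Chd3 lie below 0 and that of Cbfa2t2 above 0 before adjustment for the number of genes.

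The other subunits of the 3 complexes were described from a list of 24, of which 21 had values. Their log2 fold changes were below 0 for 16 of 21, with a median of -0.26, and groups did not overlap for 13, 11 lower and 2 higher (19.4% and 24.7% of all genes). Of the 21, 0 passed in either direction over all genes (limma, smallest Benjamini-Hochberg adjusted p = 0.548), and at an unadjusted p under 0.05 there was 1 lower and 1 higher (3.95% and 4.97% of all genes). The lower one was Chd3, the other NuRD ATPase and a close paralog of Chd4. It was at 737 and 764 in WT against 432 and 441 in KO cells, 1.72-fold lower (log2 fold change -0.78, SE 0.24). Without Sin3B KO 1 the median of the 21 was -0.24, and without Sin3B KO 2 it was -0.18. The single gene higher at an unadjusted p under 0.05 by limma was Cbfa2t2, an ETO-family adaptor of NCoR. It was at 2626 and 3290 in WT against 3868 and 4272 in KO cells. Phf21a, the CoREST subunit that reads unmethylated histone H3 lysine 4, had the next smallest p, with 1495 and 1434 in WT against 869.8 and 1265 in KO cells (log2 fold change -0.48, limma unadjusted p = 0.0758). The highest mean normalised reads of the list, not divided by length, were those of Cbfa2t3, a relative of Cbfa2t2 (6465 and 5261 in WT, 4730 and 5193 in the KO) and of the histone-binding Rbbp4 (5183 and 3930 in WT, 6136 and 5002 in the KO).

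By complex, the 6 measured other NuRD genes had 4 log2 fold changes below 0, the 5 NCoR genes 4 and the 8 CoREST genes 7. The shared deacetylases went apart, with Hdac1 at 779 and 792 in WT against 899 and 978 in KO cells, and Hdac2 at 317 and 463 in WT against 239 and 349 in KO cells (limma adjusted p = 0.668 and 0.667). For comparison, the 19 measured genes of the Sin3 complex list, 4 of which (Hdac1, Hdac2, Rbbp4 and Rbbp7) are also among the other subunits, had 13 log2 fold changes below 0 and a median of -0.22, which includes Sin3b itself.

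Fold changes in these libraries went with gene length, and the members with an unadjusted p under 0.05, Ncor1 and Chd4, are the longest of the 9. The members' median exon length was 3135 bases, against 3369 over all genes. Over 9000 genes with an exon length, Spearman's rho between length and log2 fold change was -0.27, across genes, which are not independent replicates. The share of genes below 0 was 32.9% in the shortest tertile (up to 2554 bases), 44.8% in the middle and 62% in the longest (4382 bases and more). Ncor1 (11169 bases), Chd4 (6718), Rcor1 (5684) and Gatad2a (5418) were in the longest tertile, where the median log2 fold change of all genes was -0.12, and so were 12 of the 21 other subunits. With the length trend removed from each library, an alternative chosen after seeing the data, the log2 fold change was -0.27 for Ncor1 and -0.33 for Chd4, with unadjusted p values of 0.176 and 0.0852 by limma. The shorter Mbd3 (1870 bases) and Mta1 (2831) had -0.64 and -0.65 on that scale. Hdac3 (2032 bases), in the shortest tertile with Mbd3, had 0.09, and the median of all genes in that tertile before removal was 0.14. The number below 0 was again 7 of 9 and 16 of 21, with medians of -0.29 and -0.26.

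**Figure D3:**
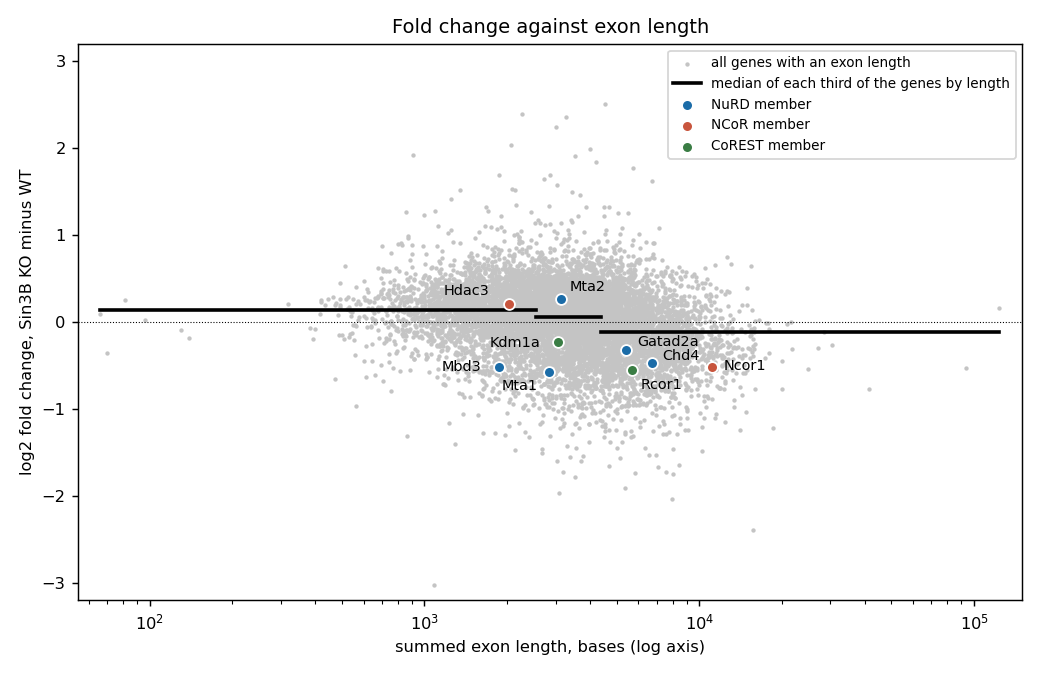
Log2 fold change (Sin3B KO minus WT) against summed exon length (log axis) for all 9000 genes with a length (grey), with the median of each tertile by length (black bars) and the 9 genes coloured by complex. The tertile medians step down from 0.14 to 0.05 and -0.12, and 7 of the 9 genes lie below the bar of their tertile.

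Ratios of paralogs within a library do not depend on the scaling between libraries, and 5 pairs were computed per kilobase of exon. Chd4 was the main ATPase, at 7.02 and 7.09 times Chd3 in WT against 8.22 and 9.26 times in KO cells. The ratio was higher in both KO libraries, by 0.31 on the log2 scale, as the less abundant Chd3 had the larger negative fold change. Mta1 stood at 0.113 and 0.233 of Mta2 in WT against 0.0727 and 0.113 in KO cells, where the highest KO value was just under the lowest WT value. Mbd3 was at 1.98 and 2.33 times Mbd2 in WT against 1.70 and 1.90 times in KO cells. Ratios of Gatad2a to Gatad2b (3.42 and 5.49 in WT, 4.96 and 4.13 in the KO) and of Rcor1 to Rcor3 (1.15 and 0.719, 0.601 and 1.08) overlapped between genotypes. With 2 libraries against 2, the exact permutation test (two-sided) cannot go below p = 0.333, which the 3 pairs without overlap reached (Benjamini-Hochberg adjusted p = 0.556 over 5 pairs).

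**Figure D4:**
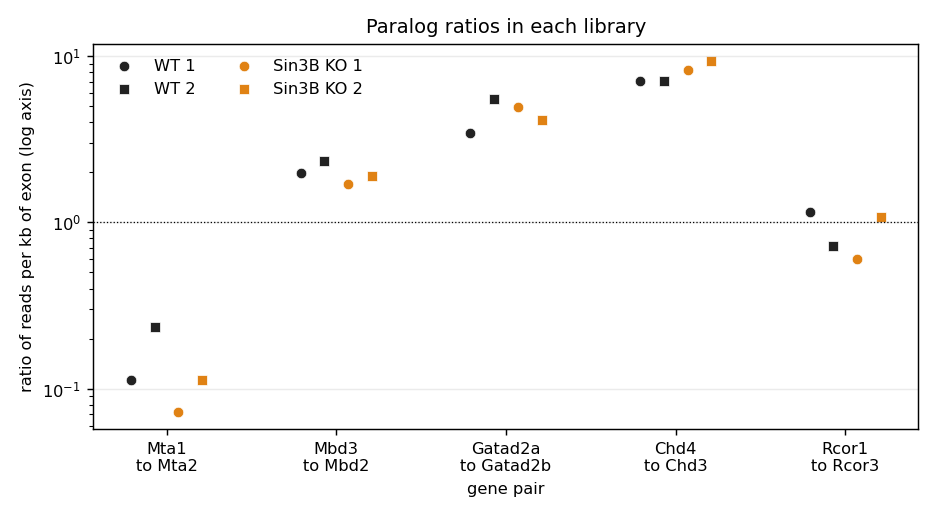
Ratio of reads per kilobase of exon (log axis) between each gene and its paralog, 1 point per library, black for WT and orange for Sin3B KO. Chd4 exceeded Chd3 by 7.02 to 9.26 times, while Mta1 stayed between 0.0727 and 0.233 of Mta2.

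Transcription factors known to recruit these complexes were described from a list of 17, of which 13 had values. Log2 fold changes were below 0 for 8 of 13 (46.6% of all genes), with a median of -0.28, and 0 passed in either direction (limma, smallest Benjamini-Hochberg adjusted p = 0.548). At an unadjusted p under 0.05 by limma there were 2, both lower (3.95% of all genes). With the length trend removed there were 0 at that level (756 of 9000 genes). Leaving out WT 1, WT 2, Sin3B KO 1 or Sin3B KO 2 gave medians of -0.15, -0.10, -0.25 and -0.09. Runx1, a master regulator of blood stem cell formation, was at 1196 and 1515 in WT against 823 and 960.4 in KO cells (log2 fold change -0.60, limma unadjusted p = 0.0276). Bcl11a, a NuRD-binding repressor of fetal globin genes, was at 3164 and 2513 in WT against 2065 and 1991 in KO cells (log2 fold change -0.48, unadjusted p = 0.0436). Gfi1b, which recruits Kdm1a and Rcor1, had the highest mean of normalised reads over the 4 libraries, though not in WT alone, and was at 2296 and 2942 in WT against 3603 and 3259 in KO cells (log2 fold change 0.40, limma unadjusted p = 0.0834). Ikzf1 (Ikaros), a partner of NuRD in lymphoid cells, was at 2679 and 2354 in WT against 3782 and 2674 in KO cells.

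Profiles over the 4 libraries were compared by the Euclidean distance of log2 values centred on each gene's mean, over 9124 genes. The nearest gene to Ncor1 was Klhdc2 (distance 0.033), to Chd4 Synj1 (0.028), to Mbd3 Vasp (0.021) and to Hdac3 Ikbkg (0.010). To Mta1 it was Pink1 (0.038), to Mta2 Parl (0.034), to Gatad2a Rest (0.051), to Rcor1 Pigt (0.037) and to Kdm1a Psmg4 (0.029). Among the members themselves Ncor1 and Mbd3 were closest, at 0.101, and Mbd3 was the 26th nearest of all genes to Ncor1. With 4 libraries such distances only describe these samples.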

How the data were processed

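Per the labels' protocols, sorted cells were lysed directly and polyA RNA went into SMARTer libraries, which are meant for low input. Bowtie, DESeq and the build mm9 are listed, without versions, per the submitters' processing notes. No source used here names the read counter, its annotation or its strand setting. The deposited table of 9796 genes holds, per the authors' column names, a normalised signal for each library. All values (100%) were within 0.01 of a whole multiple of 1 step per library, as read counts divided by a size factor would be. Depths and counting errors take that step as 1 read, which low genes, being missing, could not check. Per the file headers it also holds the authors' log2 fold change with its error, a test score, p-value and adjusted p-value. Genes with a mean under 120.2 are not listed, and 552 genes (5.63%) without library values were left out.

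The members and lists were chosen with earlier results of these data known. Limma 3.58.1 (R 4.3.3) was fitted to log2(value + 1) of all 9244 genes with a trended prior (6.62 degrees of freedom beside 2 of the libraries) and genotype as the only term, and was tested on simulated data. Named genes were the 9 members, from each list the 3 with the smallest p and the 2 with the highest mean, the paralogs, and the nearest profile of each member. Exon lengths (the union of basic transcripts) came from GENCODE M21 (GRCm38) through Ensembl identifiers. The only overlaps of a member's exons with another gene were under 1% of their length (Ncor1, Chd4 and Rcor1). Some list genes are not reported here, and counts and sums are over the remaining ones.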

Additional observations from a re-analysis of the deposited data

How the results depend on the processing

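The log2 fold changes of the 9 members kept their sign in 105 of 105 pairs of a member and an alternative setting. Part of that was fixed in advance, as the replicate block and a filter on the mean do not change an estimate. Nor can leaving out 1 library reverse the 8 members whose groups did not overlap. The settings were other scalings (trimmed mean, upper quartile, quantile), pseudocounts of 0.1 and 5, and a mean of at least 500 (which 6 members reached). They also included the replicate block, each library left out, and removal of the exon length trend, which was added after seeing the data. No member passed in any of them, with limma adjusted p from 0.202 to 0.997. Upper quartile scaling moved the median of all genes from 0.03 to -0.08, and that of the members from -0.47 to -0.59. At an unadjusted p under 0.05 by limma, members numbered 2 in the main comparison, where 824 of 9244 genes were at that level. Members numbered 3 with upper quartile scaling (881 of 9244 genes). With the replicate block there were 3, Mta1 beside Ncor1 and Chd4 (1575 of 9244 genes). Without the length trend there was 1, Mbd3 (756 of 9000 genes). Without WT replicate 2 the members' median was -0.20.

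A replicate block let 27 genes of the table pass (0.292%) and 0 members, Ncor1 (adjusted p = 0.202) and Chd4 (0.217) being nearest. The correlation of same-numbered libraries' deviations was 0.465 over all genes, what the number marks is not stated, and of the list genes Sin3b alone passed under the block (adjusted p = 0.0282, against 0.548 without it). Other subunits at an unadjusted p under 0.05 by limma numbered 4 of 21 with the block, where 1575 of 9244 genes were at that level. Without the block they numbered 2 of 21 (824 of 9244 genes). Leaving out 1 library gave 0 to 1 genes passing. The log2 difference of the Gatad2a to Gatad2b ratio ranged from -0.28 to 0.40 and that of Rcor1 to Rcor3 from -0.60 to 0.24 when 1 library was left out, while Mta1 to Mta2 ranged from -1.37 to -0.32, Mbd3 to Mbd2 from -0.37 to -0.14 and Chd4 to Chd3 from 0.22 to 0.39. A fit without 1 library assumes that the lone library of its group varies like the others. The planned edgeR and DESeq2 fits were not run: the table holds normalised values, and with its low genes missing their conversion to whole reads could not be checked well enough for a count test.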
